A study of Mus musculus with 3 samples.

Results

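Interleukins are secreted signalling proteins that leukocytes use to instruct each other, and interleukin receptors are the membrane chains that read them. The genes described here are those of the count table whose symbols begin with Il and a number. Il7r, Il2ra, Il34 and Il4i1 were left out, which leaves 68 of the 17857 genes in the table. Among the 68, 38 have an r after the number and are treated as receptors, although Il1rn, which encodes the secreted antagonist of the IL-1 receptor, falls among them by its letters. Another 27 encode interleukins themselves. The remaining 3 are Il6st, which encodes the shared signalling chain gp130, Il18bp, which encodes a soluble protein that binds IL-18, and Il1bos, a noncoding RNA antisense to Il1b.

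The RNA came from lymph nodes that drained B16F10 melanomas, a mouse tumour line implanted in both thighs of C57BL/6 mice (strain label C57BL/6J) that were left untreated until day 14. Nodes were pooled, and cells with Ly6C and c-kit on their surface and without CD11c were sorted, which the labels call precursor cells. All 3 libraries belong to this 1 group, they stem from repeat experiments named replicates 1, 2 and 3, and there is no control population. How many mice a pool held, and whether experiments shared mice, is not stated in the labels, so the spread between libraries, and each p-value resting on it, may be technical.

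Most interleukin receptors are assembled from a chain that binds the ligand and a partner chain that several receptors share. The gamma chain (Il2rg) serves IL-2, IL-4, IL-9, IL-15 and IL-21, gp130 serves IL-6, IL-11 and IL-27, and the beta chain Csf2rb serves IL-3 and IL-5. These receptors signal through Janus kinases and STAT factors, whereas receptors of the IL-1 and IL-17 families signal through adaptors such as MyD88 and Act1. In lymph nodes, lymphocytes carry many of these receptors, while most interleukin genes are read only after a cell is activated.

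The libraries held 9077195, 13885509 and 13861430 counts. Levels are given as CPM, a gene's counts scaled to its library's total, or in CPM per kilobase of gene length where genes are compared, as mean ± SD (n = 3). Olfactory receptor genes, which leukocytes rarely use, averaged 0.249, 0.0207 and 0.0495 CPM per kilobase in replicates 1, 2 and 3, so replicate 1 had the highest background. Kit was read at 9.83, 5.35 and 5.92 CPM, Ly6c2 at 11.5, 121 and 41.2 CPM, and Itgax, the gene of the excluded CD11c, at 26.9, 43.2 and 23.9999 CPM. T cell markers were abundant, with the 15 genes of that list summing to 4792, 5396 and 5773 CPM. In pooled RNA of this kind, fewer cells of a type and less RNA per cell cannot be told apart.

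Receptor genes were called above 1 CPM at about the share of all genes tested, and most interleukin genes were not called. Of the 68 genes, 56 had at least 10 counts over the libraries and were tested, and 32 lay above 1 CPM in edgeR's quasi-likelihood test with adjustment over all genes tested. That is 57.1% of the tested members, beside 68.6% of all 15490 genes tested. The call was made for 25 of 36 tested receptors (69.4%, near that background) and for 5 of 17 tested interleukins (29.4%). All 32 genes also exceeded the olfactory receptor mean in each of the 3 libraries. Among all tested genes 83.6% did, but of the 10625 called above 1 CPM 10611 did, so this adds little to the call. By level per kilobase, the median over all 38 receptors was 3.37 CPM and that over all 27 interleukins was 0.441 CPM, beside 3.28 CPM over the whole table. Below 1 CPM, 0 members were called by edgeR, DESeq2 or limma, and edgeR called 0 of all genes there even at an unadjusted p under 0.05. With a filter of only 1 count, 0 of 17415 genes were called there either. The missing calls below 1 CPM therefore do not show how low a gene lies.

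**Figure D1:**
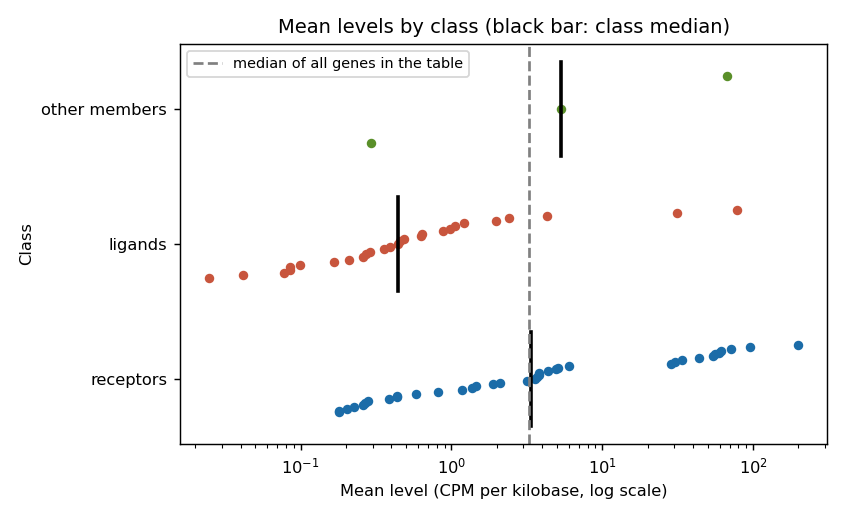
Mean level per gene over the 3 libraries, in CPM per kilobase on a log axis, for 37 of 38 receptors (Il11ra2 had no count and is not drawn), 27 interleukins and 3 other members. Points are genes, black bars are class medians over every gene of the class, and the dashed line is the median of all genes in the table. Receptors spread on both sides of that line, and interleukins lie mostly to its left, with a median of 0.441 CPM per kilobase.

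A second test asked which genes lay above 50 CPM, a level that 19.9% of tested genes exceeded. The count of 11 members, 19.6% of those tested, was near that background. They were Il2rg, Il2rb, Il21r, Il4ra, Il6ra, Il6st, Il27ra, Il17ra, Il18r1, Il10ra and the interleukin gene Il16. Adjusted p ranged from 3.00e-07 for Il16 to 5.89e-04 for Il10ra in edgeR's test. Below 50 CPM lay 41 members, beside 66.7% of tested genes. Not separated from it were 4, namely Il10rb, Il18rap, Il1b and Il22. Il22 had 11, 0 and 0 counts (edgeR adjusted p = 0.0552), so a gene not separated from 50 CPM need not lie near it. Per kilobase, the 32 genes above 1 CPM fell into 14 that averaged 28.4 or more and 18 that averaged 6.04 or less, with none between.

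**Figure D2:**
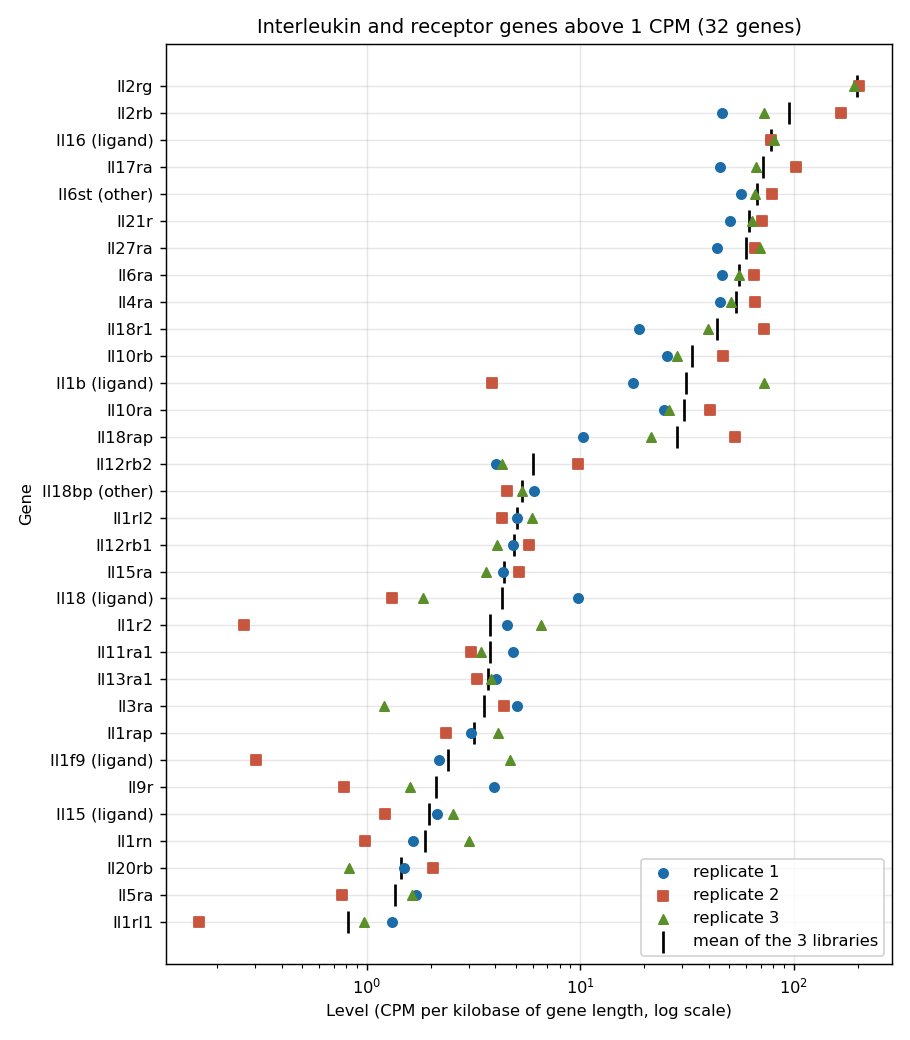
Level of the 32 genes above 1 CPM in each library, in CPM per kilobase on a log axis, with one symbol per replicate and a black bar at the mean. Il2rg stands highest at 199 CPM per kilobase, a gap separates Il18rap from Il12rb2, and Il1b, Il1r2 and Il1f9 show the widest spread between libraries.

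The gamma chain was the most abundant receptor transcript, and the steadiest among the 25 receptors above 1 CPM. Il2rg, on chromosome X from 101264385 to 101268255 in mm10, was read at 323, 327 and 310 CPM, or 199 ± 5.59 CPM per kilobase, the 99.1th percentile of tested genes. Its libraries hardly differed. Its promoter, the RefSeq window of GRCm38.p6 from 250 bases before to 50 after the start site, is printed as that of a gene that was even between libraries. Capitals mark GGTGTG, letters that T-box factors can bind.
Il2rg promoter (chrX:101268206-101268505, minus strand): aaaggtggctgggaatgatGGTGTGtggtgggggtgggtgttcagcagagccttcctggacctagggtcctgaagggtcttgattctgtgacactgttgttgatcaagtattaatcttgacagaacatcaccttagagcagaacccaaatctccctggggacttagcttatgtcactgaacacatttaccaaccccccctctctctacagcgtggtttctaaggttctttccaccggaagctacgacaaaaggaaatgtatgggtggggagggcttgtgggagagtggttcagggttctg

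Partners of the gamma chain were read at unequal levels. Il21r, the IL-21 receptor, was read at 132, 184 and 167 CPM. Il4ra, the chain that binds IL-4, was read at 230, 336 and 259 CPM. Il21r (61.7 ± 10.2 CPM per kilobase) and Il4ra (53.95 ± 10.8) are neighbours on chromosome 7, where they span 125552271 to 125634397 with no protein-coding gene between them. Il2rb, which joins the gamma chain in receptors for IL-2 and IL-15, was read at 125, 451 and 195 CPM. Replicate 2 stood above the other libraries for Il2rb, at 2.82 times their mean. Il9r, the IL-9 receptor, was read at 12.2, 2.42 and 4.94 CPM, highest in replicate 1, without which its fitted level was 3.55 CPM in place of 6.36. Il15ra, which presents IL-15 to cells with the other chains, was even at 6.76, 7.99 and 5.62 CPM. Per kilobase Il2rg exceeded Il15ra 45.9-fold, 39.4-fold and 53.0-fold in replicates 1, 2 and 3, and exceeded Il9r 50.9-fold, 259-fold and 120-fold. Il13ra1, which pairs with Il4ra in the second receptor for IL-4 and in that for IL-13, was read at 14.9, 12.1 and 14.1 CPM, and Il4ra exceeded it 11.2-fold, 20.2-fold and 13.3-fold per kilobase. All of these lay above 1 CPM, with edgeR adjusted p of 7.09e-05 for Il9r and smaller for the others. Il13ra2, a decoy for IL-13, had 5, 0 and 4 counts and was not tested.

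Receptors built on gp130 were read at matched levels for IL-6 and IL-27 but not for IL-11. Il6st was read at 308, 431 and 360 CPM and Il6ra, the chain that binds IL-6, at 154, 218 and 185 CPM. Both were lowest in replicate 1. Per kilobase Il6st exceeded Il6ra 1.22-fold, 1.22-fold and 1.19-fold. Il27ra, the IL-27 receptor, was read at 117, 176 and 185 CPM and averaged 59.9 ± 14.0 CPM per kilobase, beside 67.2 ± 11.4 for Il6st. Il11ra1, the chain for IL-11, was read at 9.51, 6.06 and 6.76 CPM, and Il6st exceeded it 11.6-fold, 25.6-fold and 19.2-fold per kilobase. Il11ra2, its near-identical copy, was at 0 in every library. With 3 counts as the most that a 0 leaves possible, the limits were 0.317, 0.214 and 0.228 CPM, and how the counting split reads between the copies is unknown. Il31ra, a relative of gp130 next to Il6st on chromosome 13, was read at 2.96, 1.28 and 2.20 CPM and was not separated from 1 CPM (edgeR adjusted p = 0.128).

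Both chains of the IL-12 receptor lay above 1 CPM, and the chain specific to IL-23 was not separated from it. Il12rb1, shared by both receptors, was read at 13.9, 16.5 and 11.8 CPM. Il12rb2, the signalling chain for IL-12, was read at 11.9, 28.7 and 12.7 CPM, highest in replicate 2. Its gene overlaps Serbp1, an abundant gene on the opposite strand with 7957, 9985 and 12330 counts, over 3317 bases, and the labels do not state whether the counting used strand. Both chains lay above 1 CPM (adjusted p = 7.47e-09 for Il12rb1 and 2.56e-08 for Il12rb2 in edgeR's test). Il23r, the neighbour of Il12rb2 on chromosome 6, was read at 1.16, 0.642 and 1.06 CPM and was not separated from 1 CPM (edgeR adjusted p = 0.965). Per kilobase Il12rb1 exceeded Il23r 10.4-fold, 22.3-fold and 9.59-fold.

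Both chains of the IL-10 receptor were read at close levels in each library. Il10ra, which binds the ligand, was read at 86.4, 142 and 91.4 CPM and Il10rb, the shared chain, at 47.1, 86.4 and 52.8 CPM. Both were highest in replicate 2. Per kilobase Il10rb exceeded Il10ra by no more than 1.15-fold in any library. Other partners of Il10rb were not separated from 1 CPM, with Il22ra1, the IL-22 chain, at 27, 0 and 14 counts and Ifnlr1, the interferon lambda chain, at 18, 0 and 13 counts. Il20rb, a chain for IL-20 and IL-24, was read at 3.70, 5.06 and 2.05 CPM and lay above 1 CPM (edgeR adjusted p = 0.002). Its partner Il20ra had no row under that symbol in the count table. Il22ra2, a soluble trap for IL-22, was at 11, 0 and 10 counts and was not separated from 1 CPM.

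In the IL-17 receptor family a single chain was abundant. Il17ra, the chain common to these receptors, was read at 179, 407 and 265 CPM, or 71.5 ± 29.03 per kilobase, and was highest in replicate 2. Its partners Il17rb, Il17rc, Il17rd and Il17re were not separated from 1 CPM, with edgeR adjusted p from 0.0872 for Il17rb to 0.802 for Il17re. Il17rc, needed for IL-17A and IL-17F, had 8, 3 and 5 counts, so that Il17ra exceeded it 127-fold, 1136-fold and 416-fold per kilobase. Il17rb, the chain for IL-25, was read at 3.38, 0.713 and 3.11 CPM. Il17rd, a relative found in several tissues, had 48, 6 and 14 counts, and Il17re, the chain for IL-17C, had 29, 2 and 9 counts. Both were highest in replicate 1.

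Among 26 receptor complexes written down from textbook pairings, all chains were measured for 25, and every chain lay above 1 CPM for 17. Taken singly, 68.6% of all tested genes were called. Shared chains such as Il2rg and Il6st count in several complexes, so the complexes are not independent. The other 8 were those for IL-1, IL-17A/F, IL-25, IL-17C, IL-22, IL-23, IL-28 and IL-31. In each of these a chain specific to the ligand was not separated from 1 CPM. Of the 17, 4 had a matching interleukin above 1 CPM as well, namely the IL-1 decoy, IL-15, IL-18 and IL-36. Each of these 4 includes a gene whose call was lost when 1 library was left out (Il1r2, Il15, Il18 and Il1f9). For 11 the interleukin was measured and not called as a whole, and for IL-9 and IL-21 it had no row in the count table. Of IL-27, Ebi3 was called and Il27 was not. For the receptor that IL-4 and IL-13 share, only Il4 had a row in the count table. The transcripts of a complex need not lie in the same cell.

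**Figure D3:**
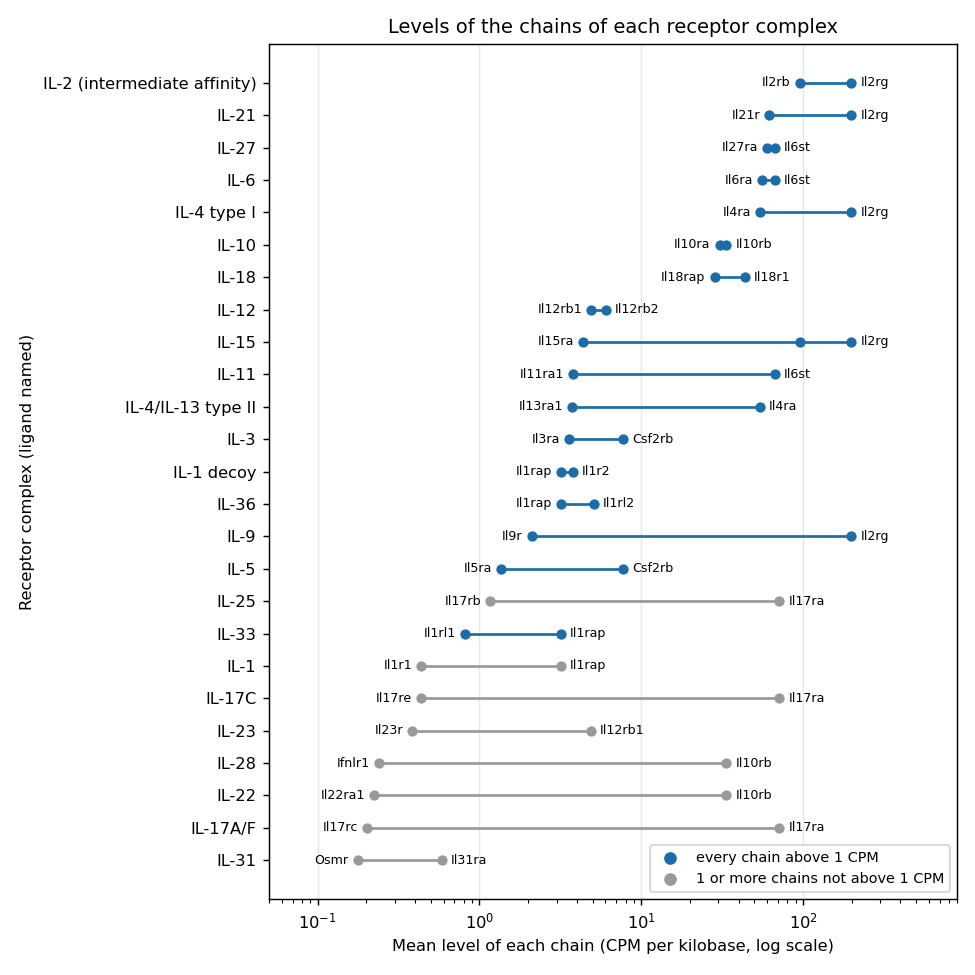
Mean level of each chain of 25 receptor complexes, in CPM per kilobase on a log axis, with a line joining the chains of a complex and the lowest and highest chain named. Blue complexes have every chain above 1 CPM (17) and grey ones do not (8). Lines are short for IL-6, IL-27, IL-10 and IL-12 and long where a shared chain such as Il2rg or Il17ra meets a rare partner.

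Receptors of the IL-1 family include a row of 6 genes on chromosome 1, from 40084692 to 40551707, with no other protein-coding gene between them. In order these are Il1r2, Il1r1, Il1rl2, Il1rl1, Il18r1 and Il18rap. Levels did not follow their closeness. Il18r1, the IL-18 binding chain, was read at 90.5, 347 and 189 CPM, and Il18rap, its signalling partner, at 25.7, 133 and 53.6 CPM. Replicate 2 was highest for both. Il1rl1, which encodes the IL-33 receptor ST2 and ends 133 bases before Il18r1 begins, was read at 9.19, 1.14 and 6.76 CPM. Per kilobase Il1rl1 averaged 0.818 ± 0.593 CPM and Il18r1 43.7 ± 27.0. Against a reference of 1 CPM per kilobase, Il1rl1 fell on the other side, with a log2 level of -0.30 (edgeR adjusted p = 0.634). Il1rl2, the receptor for IL-36, was even at 9.83, 8.34 and 11.5 CPM. Il1r1, the signalling receptor for IL-1, was read at 3.59, 0.713 and 2.28 CPM and was not separated from 1 CPM (edgeR adjusted p = 0.146). Il1r2, a decoy that takes up IL-1 without signalling, was read at 6.13, 0.357 and 8.81 CPM. Il1r2 lay above 1 CPM (edgeR adjusted p = 0.00282), though not without replicate 3 (0.0799), where its fitted level was 3.26 CPM in place of 4.999.

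**Figure D4:**
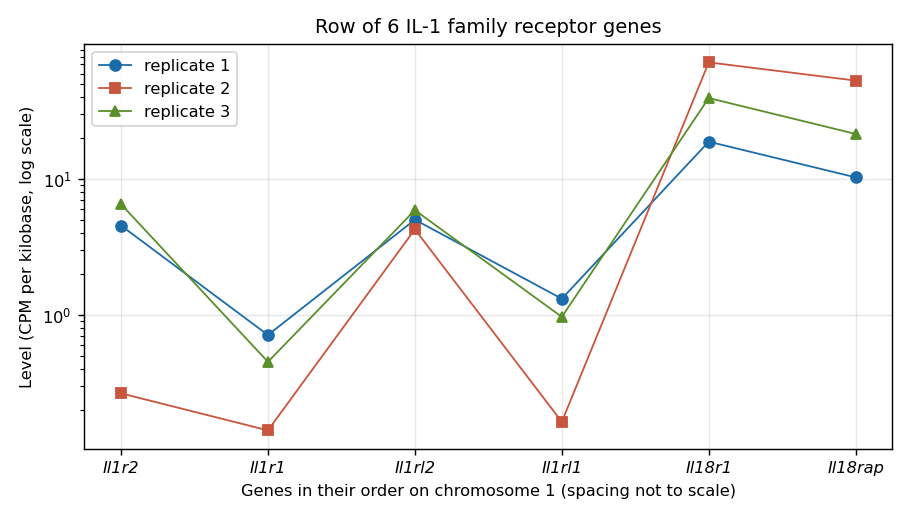
Level of the 6 neighbouring receptor genes on chromosome 1 in each library, in CPM per kilobase on a log axis, in gene order and not to scale. Lines join the genes of a library. Il18r1 and Il18rap lie above the other 4 in every library, and replicate 2 is lowest for those 4 and highest for this pair.

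Elsewhere in the family, Il1rap, the partner chain of the receptors for IL-1, IL-33 and IL-36, was read at 26.1, 19.97 and 34.8 CPM. It is a long transcript and averaged 3.18 ± 0.877 CPM per kilobase. Il1rn was read at 4.44, 2.64 and 8.13 CPM and lay above 1 CPM (edgeR adjusted p = 1.49e-04). Il18bp was even at 8.56, 6.35 and 7.44 CPM, or 5.31 ± 0.789 per kilobase, beside 4.31 ± 4.73 for Il18 itself. The synaptic relatives Il1rapl1 and Il1rapl2 were at 19, 0 and 4 counts and at 12, 0 and 1 counts, and neither was separated from 1 CPM.

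The chains that bind IL-3 and IL-5, which pair with Csf2rb, were read at less than 10 CPM. Il3ra, which binds IL-3, was read at 7.08, 6.13 and 1.67 CPM and Il5ra, which binds IL-5, at 6.02, 2.71 and 5.77 CPM. Il3ra was lowest in replicate 3 and Il5ra in replicate 2. Both lay above 1 CPM (edgeR adjusted p = 3.38e-04 and 1.41e-04). Csf2rb, read at 37.9, 48.2 and 24.7 CPM, exceeded Il3ra 1.57-fold, 2.30-fold and 4.32-fold per kilobase and Il5ra 4.70-fold, 13.3-fold and 3.19-fold. Eosinophil markers, other carriers of Il5ra, summed to 79.7, 6.70 and 22.9 CPM over 6 genes, with Epx and Ear1 at 0 in replicate 2. Their part in Il5ra was not tested.

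Il16 was the most abundant of the interleukin genes. It encodes a precursor whose released end attracts CD4-bearing cells, and lymphocytes store it without activation. It was read at 385, 391 and 402 CPM, or 78.7 ± 1.70 per kilobase, the 96.2th percentile of tested genes. The libraries were nearly equal. Il1b, the inflammatory cytokine of myeloid cells, was read at 23.6, 5.13 and 96.2 CPM. Replicate 3 was highest, at 6.70 times the mean of the others, and without it the fitted level fell from 40.8 to 14.4 CPM. Il1b lay above 1 CPM (edgeR adjusted p = 2.49e-07) and shares 1263 bases with Il1bos, which had 8, 0 and 5 counts.

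The other 3 interleukin genes above 1 CPM rested on few counts. Il18 had 80, 16 and 21 counts, or 8.45, 1.14 and 1.59 CPM, and without replicate 1 it was no longer called (edgeR adjusted p = 0.00918 with all libraries and 0.619 without), its fitted level being 1.33 CPM in place of 3.64. The Il18 gene overlaps 2 genes on the opposite strand, and the strand setting of the counting is unknown. These are Bco2 (515 bases, 45, 10 and 31 counts) and Tex12 (4121 bases, 7, 0 and 3 counts). Macrophage markers summed to 1291, 92.7 and 254 CPM over 10 genes, 10 of them highest in replicate 1 and Vsig4 at 0 in replicate 2. That pattern was not particular to macrophages. Erythroid markers summed to 4983, 73.8 and 354 CPM over 8 genes and B cell markers to 460, 186 and 248 CPM over 10. Every gene of these 2 lists, and all 8 mature dendritic cell markers, were also highest in replicate 1. The part of any of these cells in Il18 was not tested. Il1f9, which encodes IL-36 gamma, was read at 3.59, 0.499 and 7.75 CPM (edgeR adjusted p = 0.00778). Without replicate 3 its fitted level was 2.06 CPM in place of 3.88, and it was no longer called (0.529). Il15, a survival factor for lymphocytes, was read at 2.748, 1.57 and 3.27 CPM with adjusted p = 0.0405 in edgeR's test. That call was lost with robust empirical Bayes (0.0515), with no filter (0.055), in limma (0.0632) and without replicate 3 (0.448).

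The interleukin genes that were not separated from 1 CPM, or had too few counts to test, include several of helper T cells and myeloid cells. Il2, the T cell growth factor, had 6, 5 and 5 counts, and Il4, a type 2 cytokine, had 19, 0 and 14 counts. Il17f, a cytokine of the IL-17 family, had 9, 0 and 8 counts, and Il1f5, which encodes the antagonist of IL-36, had 28, 0 and 10. Il10, an inhibitory cytokine, had 7, 2 and 12 counts, and Il6 had 5, 0 and 2. Il12a had 21, 15 and 14 counts and Il12b, the chain that IL-12 and IL-23 share, 21, 0 and 1. Il1a had 31, 18 and 16 counts, Il23a 22, 0 and 3, Il27 8, 13 and 1, and Il33 14, 11 and 0. None of these was called above 1 CPM, and Il6 had too few counts to test, as had Il11 (4, 0 and 2) and Il7 (1, 1 and 6). Il10, Il19 and Il20 are neighbours on chromosome 1, and none of the 3 was called. Interleukin genes with counts in 1 library alone were Il17c, Il17d, Il20, Il22, Il25 and Il3 in replicate 1, Il5 in replicate 2 and Il19 in replicate 3. The largest of these was Il22, with 11 counts. Replicate 1 lacked counts for 2 of the 27 interleukin genes, replicate 2 for 14 and replicate 3 for 8. Of the 17857 genes in the table, 632, 3788 and 2199 had no count in replicates 1, 2 and 3, in the same order. Of the same 17857 genes, 1463 had counts in 1 library alone, and these are also among the genes with no count in the other libraries.

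Libraries differed in ways that several members shared. Of the 56 tested members, 30, 16 and 10 were highest in replicates 1, 2 and 3, beside 45.2%, 32.0% and 22.8% of all tested genes. Of the 32 genes above 1 CPM, 8, 15 and 9 were highest in replicates 1, 2 and 3, beside 27.0%, 43.8% and 29.2% of all genes above 1 CPM. Of the 24 tested members not called, 22 were highest in replicate 1, and among all genes not called 85.0% were.

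Among the members above 1 CPM, 11 had replicate 2 highest, replicate 3 next and replicate 1 lowest, and Il18rap, Il2rb, Il18r1 and Il12rb2 differed most among these. Their levels in replicate 2 were 3.34, 2.82, 2.48 and 2.33 times the mean of the other libraries, and the next, Il17ra, was at 1.83 times. These 4 were picked out after their values were seen. NK cells and activated T cells carry these receptors. NK cell markers summed to 108, 821 and 339 CPM over 9 genes, all 9 were highest in replicate 2 and none was at 0. Monocyte markers also summed highest there, at 849, 1723 and 487 CPM, with 6 of 10 highest in replicate 2. T cell markers varied less, from 4792 to 5773 CPM, and 5 of 15 were highest in replicate 2. Mitochondrial rRNA took 17.8%, 6.22% and 13.1% of counts, lowest in replicate 2. The part of these cells and of RNA composition in the receptor levels was not tested. Without replicate 2 the fitted level of Il2rb was 156 CPM in place of 252, that of Il18r1 136 in place of 205, and that of Il18rap 38.7 in place of 69.3.

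Another 7 members had replicate 3 highest, replicate 1 next and replicate 2 lowest, and of these Il1b, Il1f9, Il1r2 and Il1rn differed most. They too were picked out after their values were seen. Levels in replicate 3 were 6.70, 3.79, 2.72 and 2.30 times the mean of the others, and the next, Il15, was at 1.51 times. All 4 belong to the IL-1 family, and neutrophils and monocytes are known to carry them. Neutrophil markers summed to 221, 95.2 and 963 CPM over 10 genes, all 10 were highest in replicate 3, and Ly6g was at 0 in replicates 1 and 2. A sum highest in replicate 3 was not particular to neutrophils. Mast cell and basophil markers summed to 14.3, 9.27 and 33.1 CPM over 8 genes, 3 of them highest in replicate 3. T cell markers also summed highest there, with 10 of 15 genes highest in replicate 3. Of the 10 monocyte markers, 4 were highest in replicate 1, 6 in replicate 2 and 0 in replicate 3. The part of any of these cells in these levels was not tested.

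**Figure D5:**
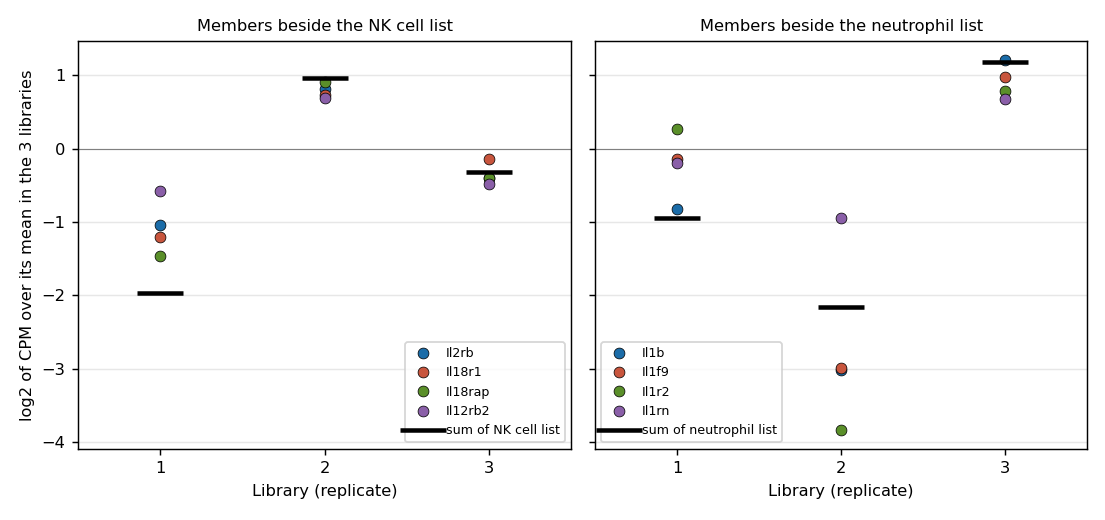
Log2 of each library's CPM over the mean of the 3 libraries, for 4 receptor genes beside the summed NK cell list (left) and 4 IL-1 family genes beside the summed neutrophil list (right). Points are genes and black bars are list sums. The left genes and the NK list are highest in replicate 2, and the right genes and the neutrophil list are highest in replicate 3 and lowest in replicate 2.

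Promoters of members from both patterns are printed here as examples of genes that varied together. RefSeq promoters were matched for 55 of 68 members, and Il2rb was not among them. Letters searched on both strands were GGAAGT (ETS factors), GGTGTG (T-box factors), TTGCNNAA (C/EBP factors) and TATAAA (the TATA box), and capitals mark matches, on either strand. They were found in 24.1%, 19.0%, 10.8% and 14.2% of 27025 promoters of the same length. Among the 55 matched members, 19, 15, 11 and 10 had them. Il18rap stands for the genes highest in replicate 2, and Il1b and Il1r2 for those highest in replicate 3. The Il1r2 window begins at 40085843, whereas the gene span begins at 40084692, so it surrounds a start site inside the span.
Il18rap promoter (chr1:40515112-40515411, plus strand): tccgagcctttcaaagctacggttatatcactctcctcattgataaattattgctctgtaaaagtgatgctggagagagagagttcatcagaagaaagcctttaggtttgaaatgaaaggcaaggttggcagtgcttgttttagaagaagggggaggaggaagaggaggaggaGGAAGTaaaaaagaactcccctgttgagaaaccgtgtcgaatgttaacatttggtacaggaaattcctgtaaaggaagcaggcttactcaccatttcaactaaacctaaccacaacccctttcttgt
Il1b promoter (chr2:129371090-129371389, minus strand): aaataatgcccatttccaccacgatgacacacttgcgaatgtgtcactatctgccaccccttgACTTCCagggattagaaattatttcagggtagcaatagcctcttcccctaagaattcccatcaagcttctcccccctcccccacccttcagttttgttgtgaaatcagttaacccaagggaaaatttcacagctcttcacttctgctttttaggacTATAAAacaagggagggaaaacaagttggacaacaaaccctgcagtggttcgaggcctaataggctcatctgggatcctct
Il1r2 promoter (chr1:40085843-40086142, plus strand): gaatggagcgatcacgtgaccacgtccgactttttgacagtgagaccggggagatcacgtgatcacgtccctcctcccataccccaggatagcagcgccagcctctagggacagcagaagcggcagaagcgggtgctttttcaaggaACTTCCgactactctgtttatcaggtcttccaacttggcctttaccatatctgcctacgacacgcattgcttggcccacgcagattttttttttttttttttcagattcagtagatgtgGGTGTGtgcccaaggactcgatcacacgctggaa

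The ETS letters occurred once in each of these 3 windows. The TATA letters occurred in that of Il1b, and the T-box letters in that of Il1r2. A match of letters is no evidence of binding, and C/EBP letters were not in these windows.

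The signalling genes below the receptors were widely read. The median over 11 Janus kinases and STAT factors was 49.4 CPM per kilobase, beside 1.02 over the 68 members and 3.28 over the whole table. All 11 lay above 1 CPM and 10 above 50 CPM, beside 68.6% and 19.9% of all genes tested. Stat5a was not separated from 50 CPM (edgeR adjusted p = 0.651). Jak1, the kinase bound to many shared chains, was read at 975, 1695 and 1361 CPM, or 254 ± 68.0 per kilobase. Jak3, which binds the gamma chain alone, was read at 81.6, 153 and 124 CPM, or 29.2 ± 8.75 per kilobase. The lowest per kilobase were Stat2 (16.9 ± 2.67) and Stat5a (13.6 ± 2.59). Of 8 adaptors of IL-1 and IL-17 receptors, all lay above 1 CPM and Irak1 and Traf6 (25%, near that background) above 50 CPM. Myd88 (31.7 ± 3.86) and Irak1 (23.6 ± 5.74) were highest per kilobase, and Irak2 (6.38 ± 0.662) and Irak3 (5.66 ± 2.10) lowest.

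Of 6 genes that process or release interleukins, all lay above 1 CPM and Gsdmd and Pcsk7 (33.3%) above 50 CPM. Over all genes tested the shares were 68.6% and 19.9%. Gsdmd, the pore through which IL-1 beta leaves cells, averaged 41.1 ± 7.09 CPM per kilobase and Pycard, an inflammasome adaptor, 18.2 ± 1.49. Casp1, which cleaves IL-1 beta and IL-18, was read at 24.8, 13.1 and 20.8 CPM (12.9 ± 3.93 per kilobase), and the inflammasome sensor Nlrp3 averaged 3.02 ± 0.654. Unlike Il1b, Nlrp3 was nearly as high in replicate 1 (13.3 CPM) as in replicate 3 (13.97 CPM). Of 10 receptor partners with other names, 6 lay above 1 CPM, or 66.7% of the 9 tested, near the share of all genes. Sigirr, a brake on IL-1 receptors, was the highest with 18.95 ± 4.26 CPM per kilobase, then Csf2ra with 14.4 ± 2.00, while Osmr (0.176 ± 0.226) and Cntfr (1 count in all) were lowest. Of 8 ligand partners, Clcf1, Osm and Ebi3 lay above 1 CPM, or 60% of the 5 tested. Clcf1, a ligand of the IL-6 family, was read at 14.3, 34.5 and 25.8 CPM and Osm at 9.09, 8.27 and 12.3 CPM. Cntf and Ctf1 were lowest, with 5, 0 and 1 and with 3, 0 and 2 counts. Ebi3, which joins Il27 to make IL-27, was read at 6.45, 1.71 and 2.20 CPM.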

How the data were processed

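Bulk RNA-seq was made from 8 ng of total RNA per library with a stranded kit, per the labels' protocols. The authors deposited 1 table of whole-number read counts with a gene length per gene. STAR 2.75, featureCounts and DESeq2 1.18.1 with build mm10 are listed in the submitters' processing notes, with no role given. The annotation, strand setting and gene filter are unknown, not given in the sources used here.

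CPM was computed from the deposited counts with TMM factors of 1.04, 1.01 and 0.9499 in edgeR 4.0.16, and CPM per kilobase with the deposited gene length. Where a gene was at 0, its limit was set at 3 counts, for counting error only. Genes whose counts summed to 10 or more were tested against 1 CPM and 50 CPM in an intercept-only quasi-likelihood fit, two-sided, with Benjamini-Hochberg adjustment over 15490 genes and a threshold of 0.05. The F statistic compared the fitted deviance with that at the reference level. The scripts were tested on simulated data. Alternatives were DESeq2 1.42.0, limma 3.58.1 (pseudocount 0.5), other scalings and filters, and each library left out.

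Named were members above 1 CPM, their partner chains, members with no count or counts in 1 library, and the 2 highest and 2 lowest genes of each pathway list. One gene that this rule names is not reported here. The members and lists were chosen with earlier results of these data known. Gene positions and promoters come from RefSeq GRCm38.p6, the assembly that mm10 represents. All 68 members matched by identifier. Positions count from 1 and cover exons and introns.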

Additional observations from a re-analysis of the deposited data

How the results depend on the processing

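No paired analysis was possible because the libraries form 1 group with no second group to pair them with. The counts of members, receptors and complexes above 1 CPM and of members above 50 CPM moved by less than 1.5 times under every alternative run. Leaving out 1 library in turn gave 29 to 35 members above 1 CPM, 3 to 5 interleukins above 1 CPM and 18 to 41 members below 50 CPM, both lowest without replicate 3. Of all genes tested, 78.0%, 70.9% and 69.6% lay above 1 CPM without replicates 1, 2 and 3. The whole table also had fewer genes below 50 CPM without replicate 3, at 5513 of 14979 tested, beside 10336 of 15490 with all libraries. Of the members, 18 of 53 tested were below 50 CPM without replicate 3. With 1 library left out, the test leans on the spread pooled over genes. Interleukins above 1 CPM numbered 2 in limma and 3 against 1 CPM per kilobase, beside 5. Of all genes tested, 66.8% lay above 1 CPM in limma and 62.5% above 1 CPM per kilobase. Members below 50 CPM numbered 19 with edgeR's own filter, under which 33 members were tested, beside 41. Under that filter 6202 of all 11056 genes tested lay below 50 CPM. The cause was not tested for the limma count. Leaving out 1 library moved the log2 level over 50 CPM between -0.0083 and 0.45 for Il10rb, -0.34 and 0.86 for Il18rap, and -1.77 and 0.25 for Il1b. The sign changed without replicate 2 for all 3, and Il18rap was called above 50 CPM without replicate 1 and Il1b below it without replicate 3. The log2 level of Il1rl1 was -0.30 over 1 CPM per kilobase. Il18, Il1f9, Il1r2 and Il15 lost their call against 1 CPM in limma. Among 32 members above 1 CPM, 24 kept a fitted level within 1.5 times when any library was left out. At these depths 1 count was worth 0.106, 0.0713 and 0.0759 CPM, so levels of members with few counts were not resolved.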
